A study of Mus musculus with 10 samples.

Results

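The proximal tubule transport and endocytosis genes described here were 35 genes chosen by name: 4 genes of the protein uptake machinery and 31 genes of water, glucose, amino acid, ion and drug transport. All 35 were measured, among 18193 genes with a probe set annotated to a single symbol, and all 35 were among the 11486 genes tested. Where several probe sets shared a symbol, the one with the highest average stood for the gene. Slc5a2 stood for the early part of the tubule and Slc7a13 for its late part, and Havcr1, a gene induced in injured tubule cells, gave the injury level of each mouse.

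The arrays measured RNA of renal cortex from FVB/N mice aged 20 weeks with a remnant kidney. Every mouse had a 2/3 kidney ablation followed by removal of the other kidney, so the surgery was shared by both groups. Dosing began 6 weeks from the ablation and 4 weeks from the uninephrectomy. Of the mice, 5 received losartan, which blocks the angiotensin receptor, at 500 mg/l, and 5 received aliskiren, which inhibits renin, at 50 mg/kg per day. Treatment lasted 6 weeks, and each array held 1 mouse. Animals without either drug were not analysed here, so no value is a change from an untreated kidney. The labels do not give the sex. The Y-linked gene Kdm5d lay between 7.48 and 8.07 on the log2 scale in all 10 mice, and Xist lay between 4.36 and 5.22, below the level of 5.53 that a gene's mean had to reach to be tested.

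The proximal tubule takes back most of the filtered glucose, amino acids, bicarbonate and protein from the urine. Its brush border carries sodium-coupled transporters and the endocytic receptors megalin and cubilin, while its basolateral side carries exit transporters and the uptake carriers for drugs and organic anions. The early segments use high-capacity carriers such as SGLT2, encoded by Slc5a2, and the late segment uses high-affinity carriers such as SGLT1, encoded by Slc5a1. In injured tubules, expression of differentiated transporters is known to fall while Havcr1 rises.

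Promoter windows of 30 of the 35 genes, 40 windows in all, were found among 32851 RefSeq windows of 27025 genes (build GRCm38.p6). Slc13a1, Slc5a12, Slc5a2, Slc23a1 and Slc7a13 had none. Each window ran from 250 bases before to 50 bases after a gene's start. Only the 250 bases before the start were searched, on both strands. The windows were searched for sites of HNF1 and HNF4, the transcription factors of differentiated proximal tubule cells. The full HNF1 palindrome was in 0 of the 40 windows and in 0.00913% of all windows. Its core GTTAAT, which the palindrome also contains, was in 4 of the 40, those of Dab2, Slc22a6, Slc22a8 and Slc7a7, and in 6.43% of all. The HNF4 sequence CAAAGTCCA was in 1 of the 40, that of Slc3a1, and in 0.384% of all. The 250 bases before the start are shown for Slc7a7 and Slc3a1, with the match in capitals, and for Slc5a1, one of the genes that moved with Havcr1, which held neither. The match began 86 bases before the start in Slc7a7 and 39 bases before it in Slc3a1. Slc7a7 lies on the minus strand at chr14:54409473-54409722, Slc3a1 on the plus strand at chr17:85028097-85028346, and Slc5a1 on the plus strand at chr5:33103969-33104218. A match describes letters only and is no evidence of binding.
Slc7a7: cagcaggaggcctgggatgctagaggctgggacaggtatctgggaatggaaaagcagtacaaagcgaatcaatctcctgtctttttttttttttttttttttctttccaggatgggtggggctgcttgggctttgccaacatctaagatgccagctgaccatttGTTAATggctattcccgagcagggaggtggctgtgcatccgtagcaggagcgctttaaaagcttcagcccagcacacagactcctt
Slc3a1: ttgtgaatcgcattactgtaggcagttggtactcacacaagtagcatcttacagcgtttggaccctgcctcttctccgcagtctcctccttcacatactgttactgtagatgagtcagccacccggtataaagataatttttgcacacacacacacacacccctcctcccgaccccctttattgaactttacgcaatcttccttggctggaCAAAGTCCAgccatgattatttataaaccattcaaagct
Slc5a1: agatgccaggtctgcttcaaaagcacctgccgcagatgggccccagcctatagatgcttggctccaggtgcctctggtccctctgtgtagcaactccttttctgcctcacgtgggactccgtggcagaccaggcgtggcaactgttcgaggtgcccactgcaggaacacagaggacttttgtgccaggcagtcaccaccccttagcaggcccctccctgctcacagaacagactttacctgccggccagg

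The values were RMA log2 intensities, with array medians between 5.52 and 5.56 and correlations between arrays from 0.975 to 0.996. Losartan mouse 3 stood apart. Its Adipoq, a gene of fat cells, was 12.96, against 7.35 in aliskiren mouse 2, 9.90 in aliskiren mouse 3 and 3.17 to 3.96 in the other 7 mice. The mean of the 5 fat genes measured was 10.76 in losartan mouse 3 and ranged from 4.87 to 10.76 in the losartan group and from 4.70 to 8.72 in the aliskiren group. Losartan mouse 3 also had the highest Havcr1, at 10.76, and the highest mean of the macrophage and leukocyte genes, at 8.88, and of the fibroblast and matrix genes, at 10.03. Over the losartan mice the macrophage mean ranged from 6.26 to 8.88 and the fibroblast mean from 7.13 to 10.03, and over the aliskiren mice from 6.85 to 8.37 and from 7.44 to 8.73. Of the 35 tubule genes, 18 (51.4%) had their lowest value in losartan mouse 3, against 24.9% of all genes tested, and 4 had their highest value there. How far fat, immune or matrix RNA moved the tubule genes in that mouse was not tested. Drug differences and slopes are also given without it wherever leaving it out turned a printed value's sign, lost a call or moved the value by more than 1.5-fold. In whole cortex, fewer tubule cells and less RNA per tubule cell cannot be told apart.

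**Figure D1:**
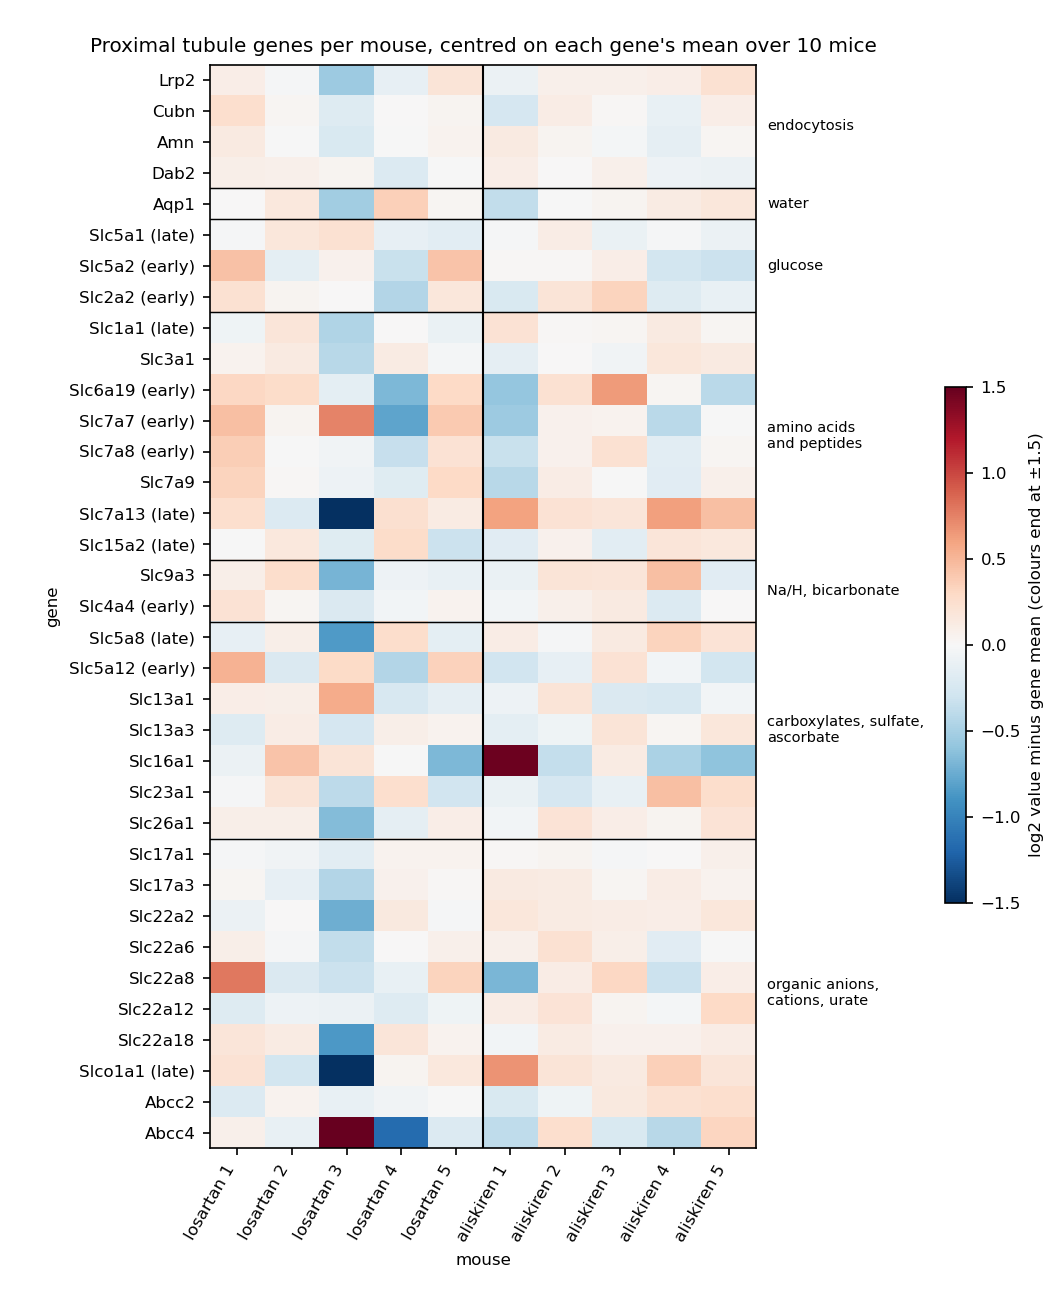
Log2 value of each of the 35 proximal tubule genes (rows) in each of the 10 mice (columns), centred on the gene's mean over all mice and shown as colour. Losartan mouse 3 holds the lowest value of 18 genes, with Slc7a13 and Slco1a1 the lowest of all relative to their means.

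The study compared the drugs, and the first question was whether the tubule genes differed between them. None passed the test. By limma's moderated test with Benjamini-Hochberg adjustment, 0 of the 35 had an adjusted p below 0.05, and 0 of 11486 genes did (0%); the lowest adjusted p among the 35 was 0.945. At an unadjusted p below 0.05 there was 1 of the 35, or 2.86%, against 542 of all genes, or 4.72%, and an ordinary t statistic gave 573 genes unadjusted and 0 adjusted. With aliskiren 21 of the 35 had a higher mean and 14 a lower mean, and the median difference, aliskiren minus losartan, was 0.05 on the log2 scale against -0.01 for all genes; the members' median was 0.01 without losartan mouse 3. For 25 of the 35 the 95% confidence interval of the difference lay within 1.5-fold in either direction. This was a smaller share than the 87.7% of all genes tested. Larger differences lie outside the interval for those 25 and inside it for the other 10. All differences below are aliskiren minus losartan, in log2 units.

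Slc22a12 encodes URAT1, the urate exchanger of the brush border. Its levels were 11.81, 11.93, 11.92, 11.81 and 11.94 in losartan mice 1 to 5 and 12.11, 12.21, 12.05, 11.98 and 12.30 in aliskiren mice 1 to 5. Every aliskiren mouse was above every losartan mouse. The difference was 0.25 (SE 0.07), with means of 11.88 ± 0.07 and 12.13 ± 0.13 (SD, n = 5 each), and limma's adjusted p over all genes was 0.945. Without losartan mouse 3 the difference was 0.26. It was the only one of the 35 genes whose groups did not overlap, 2.86% of them, while 0.914% of all genes tested had groups that did not overlap.

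Among the other carriers of organic anions, cations and urate, 7 of 9 had higher means with aliskiren and none passed the test. Slc17a3, which encodes a sodium phosphate transporter family member that carries urate and organic anions, had levels of 13.71, 13.56, 13.25, 13.75 and 13.70 with losartan and 13.82, 13.81, 13.72, 13.79 and 13.74 with aliskiren. The difference was 0.18 (SE 0.09), or 0.10 without losartan mouse 3, and the groups overlapped only because losartan mouse 4 lay above aliskiren mice 3 and 5. Slc22a2, the organic cation carrier OCT2 of the basolateral side, stood at 11.98, 12.07, 11.34, 12.22 and 12.05 with losartan and at 12.24, 12.19, 12.18, 12.17 and 12.24 with aliskiren. The aliskiren values lay close together (SD 0.03), the losartan values did not (SD 0.34), and the difference of 0.27 (SE 0.14) became 0.12 without losartan mouse 3. Slco1a1, an organic anion carrier of the brush border, had levels of 12.01, 11.51, 10.09, 11.83 and 11.94 with losartan and 12.46, 11.97, 11.92, 12.14 and 11.97 with aliskiren. Its difference of 0.62 (SE 0.33) became 0.27 without losartan mouse 3. The basolateral organic anion carriers Slc22a6 (OAT1) and Slc22a8 (OAT3) differed by 0.09 (SE 0.10) and -0.20 (SE 0.24), and the phosphate and urate carrier Slc17a1 by 0.05 (SE 0.06). Leaving out losartan mouse 3 gave 0.0049 for Slc22a6, -0.30 for Slc22a8 and 0.01 for Slc17a1. Slc22a18, an organic cation transporter-like protein, differed by 0.13 (SE 0.18), and this turned to -0.07 without losartan mouse 3. The apical export pumps Abcc2 (MRP2) and Abcc4 (MRP4) differed by 0.13 (SE 0.10) and -0.18 (SE 0.45). Abcc4 had the second widest range of the 35 genes: its levels were 9.06, 8.87, 10.85, 7.84 and 8.78 with losartan and 8.61, 9.23, 8.75, 8.57 and 9.31 with aliskiren. Losartan mice 3 and 4 held its highest and lowest values, and its difference turned to 0.26 without losartan mouse 3.

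Endocytosis genes differed little between the drugs. Lrp2 encodes megalin, the large receptor that takes up filtered protein, and its levels were 13.15, 13.02, 12.50, 12.93 and 13.24 with losartan and 12.96, 13.12, 13.12, 13.15 and 13.27 with aliskiren. Losartan mouse 3 was lowest and the rest overlapped, and the difference of 0.16 (SE 0.13) was 0.04 without it. Cubn encodes cubilin, the partner of megalin for albumin and vitamin B12 uptake. Its levels were 12.79, 12.57, 12.34, 12.54 and 12.58 with losartan and 12.28, 12.64, 12.55, 12.42 and 12.64 with aliskiren, with the lowest value in aliskiren mouse 1, and the difference was -0.06 (SE 0.10), or -0.11 without losartan mouse 3. Amn, which brings cubilin to the membrane, differed by 0.02 (SE 0.08), and Dab2, the adaptor that links megalin to clathrin, by less than its SE of 0.07. Aqp1, the water channel, differed by -0.02 (SE 0.16). Amn turned to -0.04 without losartan mouse 3, while Dab2 stood at 0.01 and Aqp1 at -0.15.

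Glucose carriers showed the same overlap. Slc5a2 levels were 12.51, 11.93, 12.14, 11.73 and 12.50 with losartan and 12.09, 12.09, 12.17, 11.80 and 11.74 with aliskiren. Losartan mice 1 and 5 were above every other mouse, the other 3 overlapped with the aliskiren mice, and the difference was -0.18 (SE 0.16). Slc2a2 encodes GLUT2, the basolateral exit for glucose, with levels of 12.40, 12.21, 12.18, 11.74 and 12.35 under losartan and 11.95, 12.37, 12.51, 11.99 and 12.07 under aliskiren. Its group means were both 12.18, with an SE of 0.15 for their difference, whose sign near 0 turned without losartan mouse 3. Slc5a1 levels were 9.88, 10.06, 10.12, 9.77 and 9.73 with losartan and 9.88, 10.01, 9.79, 9.88 and 9.81 with aliskiren. The groups overlapped, and the difference was -0.04 (SE 0.09), or 0.01 without losartan mouse 3.

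Of the 8 amino acid and peptide carriers, 4 had higher and 4 lower means with aliskiren. Slc7a13, a late-segment transporter of acidic amino acids and cystine, had the widest range of the 35 genes: 13.23, 12.77, 10.47, 13.21 and 13.10 with losartan and 13.58, 13.19, 13.15, 13.59 and 13.42 with aliskiren. Losartan mouse 3 lay far below the other 9 mice, which overlapped between the groups. The difference of 0.83 (SE 0.47; 95% interval -0.21 to 1.88) was 0.31 without that mouse. Slc15a2 encodes PEPT2, the high-affinity peptide carrier. Its levels were 11.79, 11.96, 11.61, 12.07 and 11.47 under losartan and 11.63, 11.86, 11.63, 11.97 and 11.96 under aliskiren, with the groups overlapping and a difference of 0.03 (SE 0.12), or -0.01 without losartan mouse 3. Slc7a7, the basolateral exit for cationic amino acids, had the lowest difference of the 35, -0.34 (SE 0.26), and it was -0.19 without losartan mouse 3. Slc6a19, the neutral amino acid carrier B0AT1, differed by -0.03 (SE 0.26), and the basolateral carrier Slc7a8 by -0.07 (SE 0.14). Slc3a1 and Slc7a9, the subunits of the cystine transporter, differed by 0.05 (SE 0.11) and -0.16 (SE 0.13), and the glutamate carrier Slc1a1 by 0.17 (SE 0.10). Leaving out losartan mouse 3 turned Slc3a1 to -0.05 and moved Slc1a1 to 0.08 and Slc6a19 to -0.07.

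The sodium-proton exchanger Slc9a3 (NHE3) and the basolateral bicarbonate exit Slc4a4 (NBCe1) differed by 0.22 (SE 0.18) and -0.01 (SE 0.09), or 0.07 and -0.07 without losartan mouse 3. Among the 7 carriers of carboxylates, sulfate and ascorbate, 5 had higher means with aliskiren. The lactate carriers Slc5a8 and Slc5a12 differed by 0.31 (SE 0.18) and -0.20 (SE 0.18), and the monocarboxylate carrier Slc16a1 by 0.06 (SE 0.37). Slc5a8 stood at 0.13, Slc5a12 at -0.16 and Slc16a1 at 0.12 without losartan mouse 3. Slc16a1 ranged from 8.79 to 10.94 over the 10 mice, with its highest value in aliskiren mouse 1 and its lowest in losartan mouse 5. Slc13a1, the brush-border sodium sulfate carrier, had levels of 12.07, 12.06, 12.52, 11.73 and 11.83 with losartan and 11.90, 12.16, 11.75, 11.73 and 11.92 with aliskiren. Losartan mouse 3 was highest and the rest overlapped, with a difference of -0.15 (SE 0.14), or -0.03 without that mouse. The dicarboxylate carrier Slc13a3 differed by 0.07 (SE 0.10), the ascorbate carrier Slc23a1 by 0.10 (SE 0.17) and the basolateral sulfate exchanger Slc26a1 by 0.21 (SE 0.14). With losartan mouse 3 left out, Slc13a3 stood at 0.02, Slc23a1 at 0.01 and Slc26a1 at 0.07. Across the 35 genes, leaving out that mouse turned the sign of 7 differences, those of Amn, Slc2a2, Slc3a1, Slc5a1, Slc15a2, Slc22a18 and Abcc4.

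**Figure D2:**
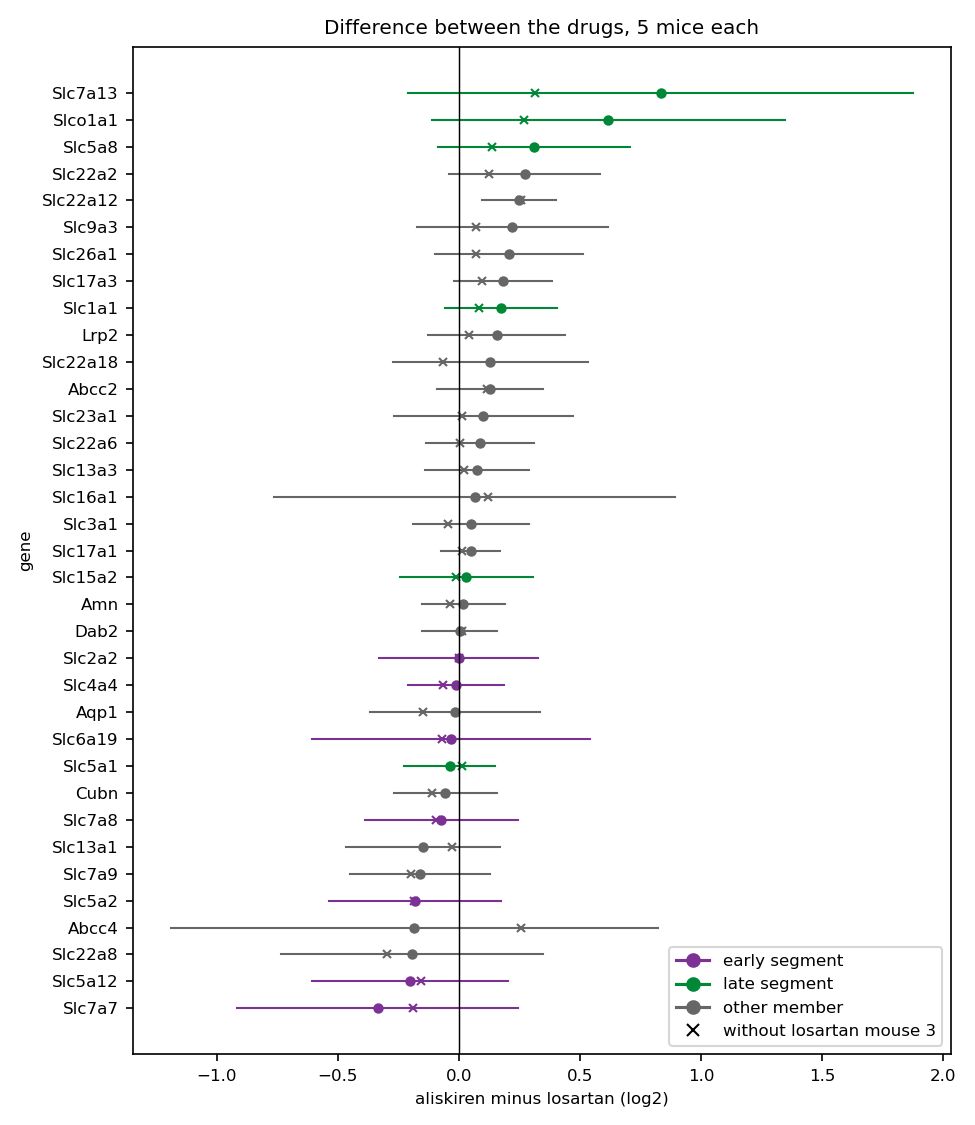
Difference in mean log2 value, aliskiren minus losartan, for each of the 35 genes with its 95% confidence interval (5 mice per group), coloured by segment. Only the interval of Slc22a12 leaves out 0, and none of the adjusted p-values was below 0.05.

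The early and late parts of the tubule were then set beside each other. From general knowledge of the tubule, Slc5a2, Slc2a2, Slc4a4, Slc5a12, Slc6a19, Slc7a7 and Slc7a8 were taken as early, and Slc7a13, Slc5a1, Slc1a1, Slc5a8, Slc15a2 and Slco1a1 as late. With aliskiren 7 of the 7 early genes had lower means (median difference -0.07) and 5 of the 6 late genes had higher means (median 0.24), beside 53.8% of all genes with lower means. The late median was 0.11 without losartan mouse 3. With array medians set equal, 6 of the 7 early genes were lower, Slc2a2 standing at 0.01, and without losartan mouse 3 the count was also 6. Slc4a4 was also near 0, at -0.01 (SE 0.09). Its other probe sets above the level filter stood at 0.05, -0.0055 and 0.02. No single gene of either segment passed the test, and counts over chosen genes carry no p-value.

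For each mouse, every gene was centred on its mean over the 10 mice, and the late mean was subtracted from the early mean. This early minus late index was 0.32, -0.02, 1.01, -0.55 and 0.35 in losartan mice 1 to 5 and -0.53, -0.02, 0.21, -0.45 and -0.31 in aliskiren mice 1 to 5. The groups overlapped, with 3 losartan mice above every aliskiren mouse and losartan mouse 4 below them all. The means were 0.22 ± 0.57 and -0.22 ± 0.31 (SD, n = 5 each), a difference of -0.44 that was smaller than the losartan SD and was -0.24 without losartan mouse 3. In that mouse the late mean stood at -0.91 and the early mean at 0.10, so its index came mainly from the late genes. Those genes were not alike: 4 of the 6 had their lowest value there, while Slc5a1 had its highest. Losartan mouse 4 had the lowest early mean, at -0.44, with late genes at 0.12.

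**Figure D3:**
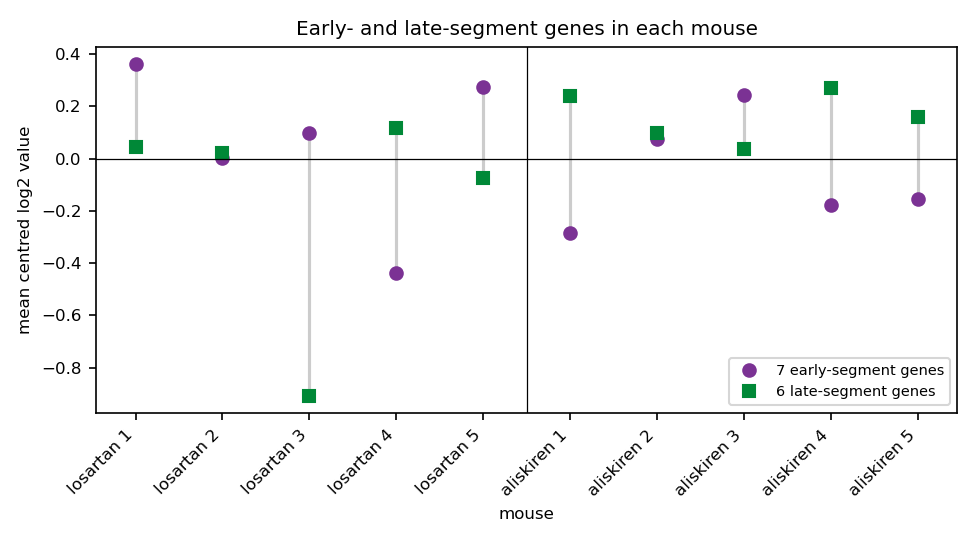
Mean centred log2 value of the 7 early-segment genes and of the 6 late-segment genes in each of the 10 mice. Late genes are at -0.91 in losartan mouse 3 and between -0.07 and 0.27 elsewhere, while early genes range from -0.44 to 0.36.

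The early genes moved together from mouse to mouse. Over the 10 mice, 21 of the 21 pairs of early genes had a positive correlation (median r 0.71), and without losartan mouse 3 the median was 0.76. The late genes were less alike, with a median r of 0.40 over 15 pairs and 0.24 without losartan mouse 3. Between early and late genes the median was -0.20, with 8 of 42 pairs above 0, and -0.43 without losartan mouse 3. Over all 595 pairs of the 35 genes the median was 0.22, and 0.02 without that mouse. These correlations share the same 10 arrays and describe them only. By correlation across mice, the gene most like Slc5a2 among the other members was Slc5a12 (r 0.85; 0.87 without losartan mouse 3). The genes most like Slc7a13 were Slco1a1 (0.98; 0.88 without it) and Slc17a3 (0.96; 0.84 without it). Slc5a2 and Slc7a13 themselves showed no detectable relation: Pearson's r was -0.14 (permutation p = 0.66, two-sided) and Spearman's rho -0.33 (permutation p = 0.35). Without the 2 mice farthest from the median Slc5a2 level r was -0.41 (exact permutation p = 0.369), and without losartan mouse 3 it was -0.24 (exact permutation p = 0.538).

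The last comparison set each gene against Havcr1 in the same mouse. Havcr1 encodes KIM-1, a receptor that injured proximal tubule cells display. Its levels were 7.23, 8.69, 10.76, 6.22 and 5.41 in losartan mice 1 to 5 and 9.37, 8.53, 6.08, 6.57 and 7.82 in aliskiren mice 1 to 5. Both groups held mice of high and of low Havcr1, and the difference, aliskiren minus losartan, was 0.01 (SE 0.99). The near-zero difference rested on losartan mouse 3: without it the value was 0.79, and without the 3 mice with Adipoq above the level filter it was 1.03. A slope on Havcr1, with the drug in the fit, was tested by limma for 11485 genes, and it is given in log2 units of the gene per log2 unit of Havcr1. Across all genes 334 fell with Havcr1 (2.91%) and 1258 rose with it (11%). Of the 35 tubule genes 0 fell and 2 rose, or 5.71%.

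The sulfate carrier Slc13a1 had a slope of 0.12 (SE 0.03), with limma's adjusted p = 0.0156. Its level was highest, at 12.52, in losartan mouse 3, where Havcr1 was highest, and lowest, at 11.73, in losartan mouse 4 and aliskiren mouse 4. Pearson's r with Havcr1 was 0.82 (permutation p = 0.00351, adjusted over all genes 0.0406) and Spearman's rho was 0.70 (adjusted permutation p = 0.204). Leaving out the 2 mice farthest from the median Havcr1 level, losartan mice 3 and 5, gave r = 0.68. Without losartan mouse 3 the slope was 0.09 with an adjusted p of 0.298, so the call was lost without that mouse. It was also lost with the mean of all probe sets (adjusted p = 0.22) and with array weights (adjusted p = 0.0769), and with the probe set of largest variance (adjusted p = 0.593). The second probe set of Slc13a1 had r = 0.24 with Havcr1 and r = 0.42 with the probe set used.

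Slc5a1, the late-segment glucose carrier SGLT1, had a slope of 0.07 (SE 0.02), with limma's adjusted p = 0.0383. It was highest in losartan mice 3 and 2 and aliskiren mouse 2, which had 3 of the 4 highest Havcr1 levels, and lowest in losartan mouse 5, which had the lowest. Pearson's r was 0.85 (adjusted permutation p = 0.0287) and Spearman's rho 0.92 (adjusted permutation p = 0.0449), and r was 0.67 without losartan mice 3 and 5. The range of Slc5a1 over all mice was small, 0.39 log2 units. Leaving out any of losartan mice 1 to 5 or aliskiren mice 2 or 3 ended the call, with adjusted p-values from 0.0537 to 0.334 and slopes from 0.06 to 0.07. The call was also lost with the probe set of largest variance (adjusted p = 0.527), the mean of all probe sets (0.227), array weights (0.133), the fat genes as a covariate (0.114), quantile normalization (0.0593) and no level filter (0.0548). Its second probe set had r = 0.30 with Havcr1 and r = 0.37 with the probe set used.

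Most of the other tubule genes had negative slopes, none past the threshold. Of the 35, 28 (80%) were negative, against 43.4% of all genes, and the median slope was -0.04 against 0.01 for all genes. Without losartan mouse 3, 21 of the 35 (60%) were negative against 35.8% of all genes, 0 of the 35 passed, and the median slope was -0.01. Leaving it out turned the sign of 9 slopes, those of Amn, Slc1a1, Slc4a4, Slc7a7, Slc15a2, Slc22a2, Slc22a6, Slc26a1 and Slco1a1. All genes then gave 0 that fell and 22 that rose. At an unadjusted p below 0.05 there were 12 of the 35 with all mice, against 32.1% of all genes, and 3 without losartan mouse 3, against 12.8%. The sign of the slope over all genes was sensitive to scaling, since quantile normalization put 55.6% of them below 0, while the count for the 35 genes was 28 under it as well.

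Lrp2 came nearest to a call among the falling genes, with a slope of -0.09 (SE 0.03; limma adjusted p = 0.0626), and it was -0.04 without losartan mouse 3. Aqp1 had -0.11 (SE 0.04; adjusted p = 0.0654) and -0.06 without that mouse. The drug and nucleotide pump Abcc4 went the other way, at 0.32 (SE 0.10; adjusted p = 0.0652), with 0.10 without it. Some slopes came almost wholly from losartan mouse 3: Slc7a13 had -0.33 (SE 0.11; adjusted p = 0.0718) with it and -0.02 without it. Slco1a1 had -0.21 with that mouse, and Slc22a18 had -0.12, and both were 0.00 without it. Slc22a8, the anion carrier OAT3, had -0.13 with and without losartan mouse 3, and Slc16a1 had 0.20 with it and 0.31 without it; neither passed the test.

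**Figure D4:**
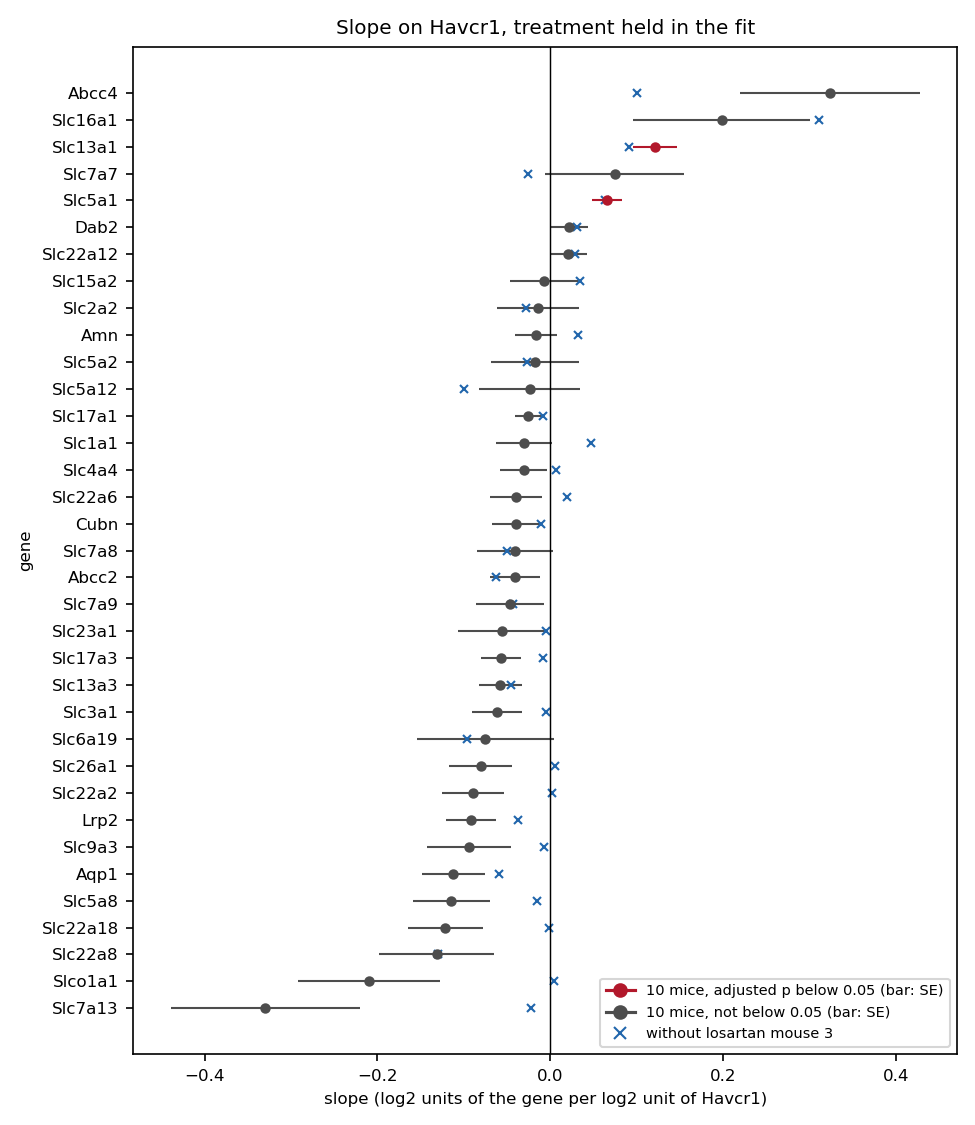
Slope of each of the 35 genes on Havcr1, in log2 units of the gene per log2 unit of Havcr1, with its standard error from the 10 mice (points and bars) and the slope without losartan mouse 3 (crosses). Slc13a1 and Slc5a1 are the genes with an adjusted p below 0.05, and the cross of Slc7a13 lies at -0.02 against its point at -0.33.

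By segment, 6 of the 7 early genes had negative slopes (median -0.02) and 5 of the 6 late genes did (median -0.07). Without losartan mouse 3 the early count was again 6 of 7 (median -0.03), and the late count was 2 of 6 (median 0.02). A difference between the drugs in the slope on Havcr1 was tested by limma in the same way. It was called for 0 of 11485 genes and 0 of the 35, with a smallest adjusted p of 0.652 among the 35. At an unadjusted p below 0.05 there were 826 of the 11485 genes and 6 of the 35, a larger share of the 35. Those 6 were Amn, Slc7a13, Slc17a3, Slc22a2, Slc22a6 and Slco1a1, and each had its lowest value in losartan mouse 3. The slope difference without that mouse is not given here, so the 6 are not read as a result.

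**Figure D5:**
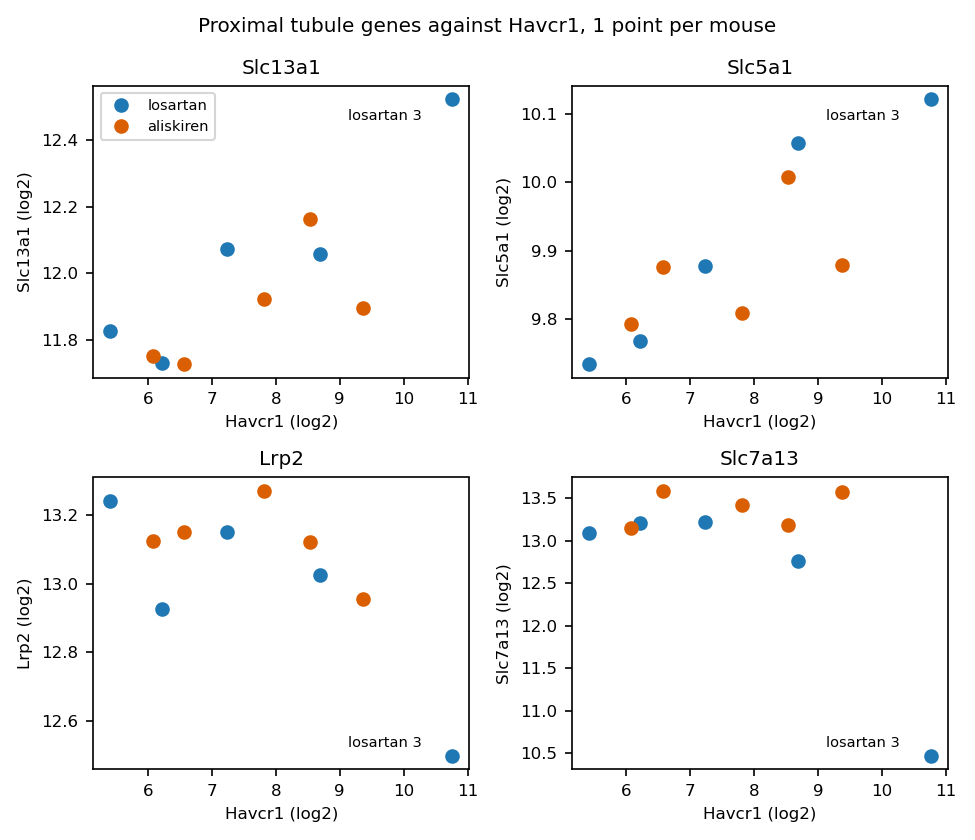
Log2 value of Slc13a1, Slc5a1, Lrp2 and Slc7a13 against that of Havcr1, 1 point per mouse, coloured by drug, with losartan mouse 3 named. In the Slc7a13 panel losartan mouse 3 lies at 10.47 and the other mice between 12.77 and 13.59.

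Other genes of the same tubule cells were counted from lists drawn up with earlier results of these data known. Of 12 partners of the transporters, such as scaffolds, accessory subunits and carbonic anhydrases, 10 were measured. Of these, 9 had negative slopes, against 43.4% of all genes, and 2 fell with Havcr1, against 2.91% of all genes. Pdzk1, a scaffold that anchors brush-border transporters, had a slope of -0.08 (SE 0.02; limma adjusted p = 0.0296), and Slc9a3r1, the scaffold NHERF1, had -0.08 (SE 0.02; adjusted p = 0.0458). Without losartan mouse 3 these slopes were -0.06 and -0.05, with adjusted p-values of 0.407 and 0.53. Of 14 genes of clathrin uptake and endosomes, 13 were measured and none passed, with 6 slopes negative and 7 positive. Of 22 further proximal tubule transporters, 20 were measured, 16 had negative slopes and 2 fell. The 2 that fell were the carnitine and cation carrier Slc22a4, at -0.22 (SE 0.05; adjusted p = 0.0242), and the dicarboxylate carrier Slc13a2, at -0.14 (SE 0.04; adjusted p = 0.0468). They stood at -0.10 and -0.06 without losartan mouse 3, with adjusted p-values of 0.431 and 0.605. Of these 20 genes, 14 (70%) had their lowest value in losartan mouse 3, against 24.9% of all genes tested. Pdzk1, Slc9a3r1, Slc22a4 and Slc13a2 all had theirs there. Of 7 transcription factors of the tubule, 5 were measured and none passed; Hnf4a had -0.06 (SE 0.02; adjusted p = 0.0871) and -0.02 without losartan mouse 3.

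Genes of some other cells rose with Havcr1, while across all genes 11% rose and 2.91% fell. With all mice, 0 of the 8 collecting duct genes and 0 of the 3 podocyte genes tested passed. Of the 7 endothelial genes 1 rose, and of the 7 loop and distal tubule genes 1 fell. Of the 7 macrophage and leukocyte genes tested, 6 rose with Havcr1, among them Cd68 at 0.64 (SE 0.05; limma adjusted p = 0.000894), and 2 of the 7 also passed without losartan mouse 3. All 6 injury genes tested and 5 of the 6 fibroblast and matrix genes rose with all mice, and none of these passed without losartan mouse 3, although the median slope of the injury genes was 0.60 with that mouse and 0.50 without it. The median of the fibroblast and matrix genes was 0.41 with it and 0.29 without it. Between the drugs, 8 of the 8 collecting duct genes and 7 of the 7 endothelial genes had lower means with aliskiren, beside 53.8% of all genes, none with an adjusted p below 0.05. At an unadjusted p below 0.05 there were 5 of the 8 collecting duct genes and 1 of the 7 endothelial genes, against 4.72% of all genes. The part of these other cells in the tubule gene values was not tested.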

How the data were processed

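Kidney cortex RNA of 10 mice was measured on 1-colour Affymetrix arrays. The deposited values are log2 intensities that the authors made by RMA; the submitters' processing notes name version 1.1 of Affymetrix Expression Console; their lowest and highest values were 2.10 and 15.06. RMA background-corrects and quantile-normalizes the arrays together, which compresses differences of dim probe sets. Of 45037 probe sets that are no controls, 34945 carry 1 gene symbol, 932 several and 9160 none in the platform annotation; only the first kind was named, and all 35 symbols matched RefSeq. No pair of the 45 array pairs was identical.

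The probe set of highest mean stood for each gene. Genes whose mean reached the median of the means of all 45037 probe sets that are no controls (5.53) were tested. Tests used limma 3.58.1 in R 4.3.3, two-sided, with Benjamini-Hochberg adjustment over all genes and a threshold of 0.05. Permutation p-values used 1e+05 draws in Python 3.11.15 with numpy 2.4.6, or all permutations where called exact. The scripts were tested on simulated data. The number of arrays, 5 per group, limits the precision, and the p-values rest on the variation between these mice.

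The members and gene lists were chosen with earlier results of these data known. Given with values in every mouse were the segment anchors Slc5a2 and Slc7a13, Lrp2, Cubn, Slc5a1, the 4 members of smallest p between drugs, and the 4 of smallest and 2 of largest p for the slope on Havcr1; of each other list at most 3 genes of smallest slope p, besides Adipoq, Hnf4a, Kdm5d and Xist. Adipoq, Kdm5d and Xist were picked as checks of the arrays. Of the 35 members 12 have 1 probe set, and 7 were read by probe sets that can match related transcripts. Of 28 second probe sets above the level filter, 24 had the same sign of correlation with Havcr1 as the one used, and 23 the same sign of the drug difference. Their median r with the one used was 0.87, and the lowest was 0.10, for Lrp2. The other probe sets of Dab2 had r from -0.17 to -0.14 with Havcr1, against 0.38 for the one used. Alternatives were another level filter, probe set rule, scaling, test statistic and injury gene, array weights, mouse number as a block, and each mouse left out. The fat genes as a covariate, and leaving out the 3 mice with Adipoq above the level filter, were added after seeing the data.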

Additional observations from a re-analysis of the deposited data

Results flagged for a closer look

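Each of the 35 members, Havcr1 and the early minus late index was checked within each drug group, 74 checks in all. In 5 of them, each a member, 1 mouse lay far from the other 4 of its group by Dixon's test; chance gives about 1 in 20. All 5 were losartan mouse 3, and in each it was the lowest. Slc7a13 was 10.47 there, with the nearest losartan mouse at 12.77. Slco1a1 was 10.09 and the nearest was 11.51. Slc22a18 was 11.38 and the nearest was 12.29, Slc22a2 was 11.34 against 11.98, and Slc22a6 was 12.54 against 12.88. That mouse also held the highest Adipoq, Havcr1 and macrophage values, and their part in these 5 values was not tested. All 5 values come from the same array, so they are not separate observations. The same mouse held the lowest value of 24.9% of all genes tested, and the share of all genes that this check would flag is not given here.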

How the results depend on the processing

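Between the drugs, 0 genes passed under every alternative run, and no alternative called a member. The count of genes whose slope on Havcr1 passed, 1592 in all, was 622 when the level had to reach the 75th percentile, 923 with an ordinary t statistic, 453 with array weights, 3006 with Krt20 in place of Havcr1 and 213 by permutation of Spearman's rho. It was 705 with the fat genes as a covariate, 21 without the 3 mice with Adipoq above the filter, 0 without losartan mice 3 and 5, and from 22 (without losartan mouse 3) to 1727 leaving out 1 mouse. Krt20 itself did not reach the level filter. Its mean was 4.99, with 7.30 in losartan mouse 3 and 4.23 to 5.76 in the other mice. Members that rose, 2 as reported, were 1 with no filter, quantile normalization or the fat covariate (Slc13a1 in each), 1 by Spearman's rho (Slc5a1) and 1 with the mean of all probe sets, where it was Abcc4 and neither of the 2. They were 0 with the probe set of largest variance, array weights, without the 3 Adipoq mice or without losartan mice 3 and 5, and 0 to 3 leaving out 1 mouse. Members that fell, 0 as reported, were 4 with the mean of all probe sets, 6 with Lcn2 and 11 with Krt20 in place of Havcr1, and 0 to 2 leaving out 1 mouse. Over all genes, 1708 passed in either direction with the mean of all probe sets. How many of all genes fell in each of these settings is not given here, so the counts are not read as particular to the members. The early minus late difference was -1.01 with Slc5a2 and Slc7a13 alone. Much of it rested on losartan mouse 3. Without that mouse the drug difference of Slc7a13 was 0.31 in place of 0.83, and that of Slc5a2 was -0.19 in place of -0.18. The causes were not tested.

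No clear pairing of the groups by mouse number was seen. Deviations of same-numbered mice correlated from -0.23 to 0.42, and 2 of 5 mice in each group matched their own number best. Pairing was not tested, and so few mice cannot exclude it. With mouse number as a replicate block, 435 genes passed in either direction, with 2 members falling and 0 rising, and no gene passed between drugs. How many of all genes fell with the block is not given here, so the 2 are not read as particular to the members.

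The sign changes listed here are those of the 13 genes given with values in every mouse. For drug differences, with the mean of all probe sets and the probe set of largest variance, Slc13a1 stood at 0.0871 and 0.32 and Slc5a1 at 0.0426 and 0.12, and Lrp2 at -0.14 with the latter. Abcc4 was 0.10 with array weights and 0.19 without the 3 Adipoq mice. Slc2a2 was 0.0077 with array medians equal, 0.0154 with array weights and 0.0015 with the fat covariate. Leaving out 1 mouse gave -0.0829 to 0.014 for Slc5a1, -0.50 to 0.26 for Abcc4, -0.047 to 0.10 for Slc15a2 and -0.11 to 0.0568 for Slc2a2. For slopes on Havcr1, Slc5a2 was 0.0274 without losartan mice 3 and 5 and 0.0374 on Krt20, and Slco1a1 was 0.028 without those mice. Slc15a2 was 0.0047 with the mean of all probe sets, 0.016 with array weights, 0.0221 with the block, 0.0155 with the fat covariate and 0.0098 without the 3 Adipoq mice. Slc2a2 was 0.0157 on Lcn2, 0.0127 on Krt20 and 0.0114 without the 3 Adipoq mice. Leaving out 1 mouse gave -0.054 to 0.0258 for Slc5a2, -0.11 to 0.0023 for Slc22a2, -0.28 to 0.0038 for Slco1a1, -0.056 to 0.0341 for Slc15a2 and -0.0506 to 0.014 for Slc2a2.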

Other observations

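Slc7a12, an amino acid transporter gene of the proximal tubule that was counted among the further transporters, had levels of 5.04, 7.43, 6.74, 4.89 and 4.56 in losartan mice 1 to 5 and 7.61, 5.47, 5.80, 6.62 and 7.04 in aliskiren mice 1 to 5. The groups overlapped, and limma's adjusted p between the drugs was 0.949. Its slope on Havcr1 was 0.44 (SE 0.14; adjusted p = 0.0626), and 0.54 without losartan mouse 3 (adjusted p = 0.286).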
